A study of Mus musculus with 8 samples.

Results

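The genes described here are Igfbp5, Igfbp2, Igfbp3, Igf1r and Pappa, 5 of the 14883 gene lines of a single-cell table from the pubertal mouse mammary gland. They were matched by symbol, and were selected on their transcript levels in the cell classes of these same data. Their differences between classes are therefore given as descriptions with no test. All 5 were found, and all 5 had transcripts in the kept cells. Cells came from micro-dissected ducts and terminal end buds, the growing duct tips, of mice aged 5 weeks of a strain labelled mixed. They were sorted live into wells and profiled by SORT-seq, an automated plate method in which a well and a molecule tag mark each transcript. There is no treated or mutant group, and the labels name 8 libraries of 96 wells, 4 on plate 2 and 4 on plate 1. The labels do not give which library held ducts, nor whether libraries came from separate animals, so the spread between libraries may be technical.

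Insulin-like growth factors are secreted peptides that act through the receptor tyrosine kinase encoded by Igf1r. In tissue fluid they are held by a family of binding proteins, the Igfbp products, which can block or prolong their action. Pappa encodes pappalysin, a secreted metalloprotease that cuts some of these binding proteins and so frees the ligand. In the mouse mammary gland IGF1 is known to be needed for the growth of ducts and end buds at puberty, and Igfbp5 is known to rise during involution after lactation.

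Of 768 wells, 114 reached both 1500 transcripts and 500 genes and are called kept cells. A kept cell was basal if Acta2, Tagln and Myl9, contractile genes of the outer myoepithelial layer, summed above Krt8, Krt18 and Krt19, keratins of the inner luminal layer, and luminal in the reverse case. A luminal cell was hormone-sensing if Prlr, the prolactin receptor, was above Trf, the transferrin made by secretory cells, and otherwise secretory. The rule gave 66 basal, 14 hormone-sensing and 28 secretory cells, and 6 cells had equal sums and no class. Median depth was 13451 transcripts in basal, 17924 in hormone-sensing and 7103 in secretory cells. Marker lists of genes outside the rule were each highest in the class they name, though not absent from the others. Per 10000 transcripts, Krt5, a basal keratin, was at 5.43 in basal cells and 0 in both luminal classes, and Trp63, a basal lineage factor, was at 2.20 and 0. Pgr, the progesterone receptor, was at 0.392 in basal, 10.2 in hormone-sensing and 0.202 in secretory cells. Elf5, a factor of the secretory lineage, was at 0, 0.0889 and 4.48 in the same order. Other secretory markers were also found in basal cells, with Csn3 at 5.27, 1.01 and 69.7 and Mfge8 at 4.83, 0.770 and 34.9 in that order. The secretory list as a whole stood at 14.6, 3.35 and 193.

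Class and library were nearly the same split, since libraries 2 and 4 of each plate held nearly all basal cells and libraries 1 and 3 nearly all luminal cells. A difference between basal and luminal cells therefore cannot be told apart from a difference between these libraries, whereas the luminal classes shared libraries. In 15 kept cells the marker list of another cell type summed above all epithelial lists, and these included all 6 cells without a class. Among basal cells there were 8 such cells, of which 5 of the 8 basal cells of plate 1 library 2 were led by endothelial or nerve markers. The 9 endothelial markers, all detected, summed to between 0.0852 and 39.8 per 10000 transcripts over the basal libraries, with the highest sum in plate 1 library 2. Values of that library are given with and without these cells, and their part in each result was not tested. Well numbers were shared between libraries for 84 kept cells, and no 2 kept wells held identical counts.

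The place of each gene is given in the mouse build mm10 as annotated by GENCODE, and all 5 are protein-coding. Igfbp2 lies on chromosome 1 at chr1:72824503-72852474 on the plus strand, and Igfbp5 at chr1:72857932-72874884 on the minus strand. Their tails face each other across 5457 bases with no other annotated gene between. Igfbp3 lies at chr11:7206086-7213923 on the minus strand, Igf1r at chr7:67952827-68233668 on the plus strand, and Pappa at chr4:65124174-65357509 on the plus strand. The neighbours Igfbp2 and Igfbp5 differed in the classes that held them, as described further on, so their promoters are shown, with that of Igfbp3 as a second gene found mainly in basal cells. Each line gives the 250 bases before the start of the gene from RefSeq on GRCm38.p6, 5′ to 3′ along the gene's own strand, and 4 of the 5 genes matched that table. Capitals mark a GC box (GGGCGG), an E-box (CACGTG) or a TATA form (TATTTAA in Igfbp5 and TATATA in Igfbp3), letters chosen after the sequences had been read and searched on both strands.
Igfbp2, chr1:72824230-72824479, plus strand: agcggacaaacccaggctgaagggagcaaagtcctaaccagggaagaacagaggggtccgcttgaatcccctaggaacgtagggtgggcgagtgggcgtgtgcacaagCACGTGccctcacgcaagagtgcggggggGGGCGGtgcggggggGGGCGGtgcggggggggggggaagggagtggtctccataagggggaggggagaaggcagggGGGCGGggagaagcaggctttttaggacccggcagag
Igfbp5, chr1:72874866-72875115, minus strand: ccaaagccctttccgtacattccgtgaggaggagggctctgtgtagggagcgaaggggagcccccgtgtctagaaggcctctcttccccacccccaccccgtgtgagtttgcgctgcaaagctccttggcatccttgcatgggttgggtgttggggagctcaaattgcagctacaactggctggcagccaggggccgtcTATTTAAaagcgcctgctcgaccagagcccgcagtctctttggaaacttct
Igfbp3, chr11:7213924-7214173, minus strand: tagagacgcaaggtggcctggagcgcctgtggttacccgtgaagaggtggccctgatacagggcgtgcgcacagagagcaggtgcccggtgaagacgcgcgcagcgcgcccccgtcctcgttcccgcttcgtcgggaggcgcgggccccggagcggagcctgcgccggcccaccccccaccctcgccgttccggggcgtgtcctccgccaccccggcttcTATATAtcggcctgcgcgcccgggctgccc
The Igfbp2 promoter held the GC box 3 times and the E-box 1 time. The GC box was found in 33.0% and the E-box in 6.04% of all 32536 promoters of the same length. The Igfbp5 promoter held TATTTAA 1 time, against 4.16% of all promoters, and the Igfbp3 promoter held TATATA 1 time, against 5.01%. The form TATAAA and the STAT-type motif TTCNNNGAA were in none of the 3, against 12.3% and 7.04% of all promoters. GC content was 67.2% for Igfbp2, 58.8% for Igfbp5 and 73.2% for Igfbp3, against a median of 52.4% over all promoters. These matches describe letters and were not tied to any factor.

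Igfbp5, a binding protein that also attaches to extracellular matrix, was found in all 3 classes at very unequal levels. Levels are transcripts per 10000 transcripts of the cells summed, with exact 95% Poisson intervals that, like the other intervals here, cover counting error only. Basal cells held 16.4 and 27.6 per 10000 in plate 2 libraries 2 and 4, and 10.4 and 14.4 in plate 1 libraries 2 and 4. Hormone-sensing cells held 0.0685 and 1.40 in plate 2 libraries 1 and 3, and 2.05 in plate 1 library 3, the libraries with at least 3 such cells. Secretory cells held 58.2 and 48.5 per 10000 in plate 2 libraries 1 and 3, and 28.0 and 127 in plate 1 libraries 1 and 3. Every hormone-sensing value was under every other value, while the highest basal and the lowest secretory value nearly met. Over all genes, 14.6% of 3412 differed between basal and luminal cells and 13.1% of 1801 between the luminal classes at an edgeR adjusted p under 0.05, and nothing is read from this for genes chosen on their class levels. The means over libraries were 17.2 ± 7.36 in basal (SD, n = 4), 1.17 ± 1.01 in hormone-sensing (SD, n = 3) and 65.3 ± 42.7 in secretory cells (SD, n = 4). Without its cells led by another type, the basal value of plate 1 library 2 was 17.8.

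Pooled over cells, Igfbp5 was at 19.2 per 10000 in basal cells (18.4 to 20.0), 1.04 in hormone-sensing cells (0.722 to 1.44) and 62.2 in secretory cells (59.4 to 65.1). The basal level was 0.309 times the secretory level (0.290 to 0.329). The hormone-sensing level was 60.0-fold lower than the secretory level (43.0 to 86.4). Both luminal classes came from the same libraries, so this gap lay within libraries. In plate 2 library 3, for instance, it was 1.40 in hormone-sensing against 48.5 in secretory cells. Plate 1 library 3 carried much of the secretory sum, and without it the secretory level was 40.2. Without that library the hormone-sensing level was 0.565, and without plate 2 library 1 it was 1.77.

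**Figure D1:**
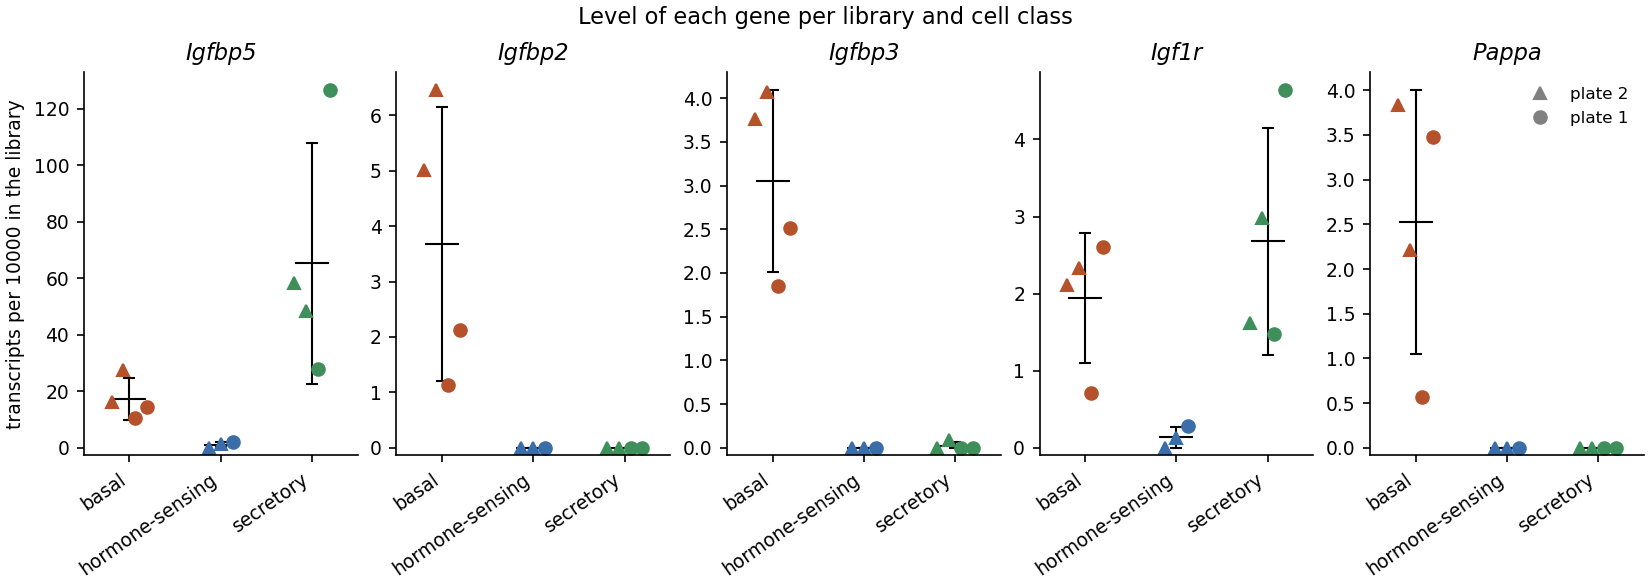
Level of each gene per library and class, in transcripts per 10000 on a linear axis whose range differs between panels; points are libraries with at least 3 cells of the class, triangles plate 2 and circles plate 1, and the bars give the mean ± SD and end at 0 where the SD is larger than the mean. Igfbp5 is high in secretory cells, with 1 library at 127 and the others between 28.0 and 58.2, while Igfbp2, Igfbp3 and Pappa stand above 0 almost only in basal cells.

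Igfbp2, a binding protein that prefers IGF2 to IGF1, was found in basal cells alone among the 108 cells with a class. Basal cells held 5.01 and 6.45 per 10000 in plate 2 libraries 2 and 4, and 1.14 and 2.12 in plate 1 libraries 2 and 4. No transcript was found in the 14 hormone-sensing or the 28 secretory cells. The pooled basal level was 4.91 from 551 transcripts, with a mean over libraries of 3.68 ± 2.47 (SD, n = 4). Against a floor of 3 transcripts in all luminal cells together, the basal level was at least 104-fold higher. The 8 basal cells led by another cell type held 0 Igfbp2 transcripts, and without those of plate 1 library 2 that library stood at 2.01.

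Igfbp3, which carries most circulating IGF together with the acid-labile subunit, followed Igfbp2. Basal cells held 3.77 and 4.06 per 10000 in plate 2 libraries 2 and 4, and 1.86 and 2.51 in plate 1 libraries 2 and 4. Luminal cells held 1 transcript in all, in a secretory cell of plate 2 library 3. The basal values did not overlap with the luminal ones. The pooled basal level was 3.60 from 404 transcripts, and the ratio of basal to luminal cells was 228 (40.8 to 9042), a wide interval set by the single luminal transcript. The mean over basal libraries was 3.05 ± 1.04 (SD, n = 4), and plate 1 library 2 stood at 3.26 without its cells led by another type.

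Pappa, the protease gene, was likewise found in basal cells alone among cells with a class. It was at 3.83 and 2.22 per 10000 in plate 2 libraries 2 and 4, and at 0.571 and 3.48 in plate 1 libraries 2 and 4. The value of plate 1 library 2 rested on 4 transcripts and was 1.00 without its cells led by another type. Pooled basal cells stood at 3.06 from 343 transcripts, at least 64.6-fold over luminal cells, which held 0. The mean over basal libraries was 2.52 ± 1.48 (SD, n = 4).

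Igf1r, the receptor, was spread over basal and secretory cells and nearly missing from hormone-sensing cells. Basal cells held 2.11 and 2.33 per 10000 in plate 2 libraries 2 and 4, and 0.714 and 2.61 in plate 1 libraries 2 and 4. Hormone-sensing cells held 0 and 0.128 in plate 2 libraries 1 and 3, and 0.280 in plate 1 library 3. Secretory cells held 1.62 and 2.98 per 10000 in plate 2 libraries 1 and 3, and 1.47 and 4.64 in plate 1 libraries 1 and 3. Basal and secretory values overlapped, while every hormone-sensing value was under both. The means over libraries were 1.94 ± 0.843 in basal (SD, n = 4), 0.136 ± 0.140 in hormone-sensing (SD, n = 3) and 2.68 ± 1.47 in secretory cells (SD, n = 4). Plate 1 library 2 was at 0.502 without its cells led by another type.

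Pooled, Igf1r was 24.2-fold lower in hormone-sensing than in secretory cells (9.10 to 90.7), from 4 and 85 transcripts. Of those 4 transcripts, plate 1 library 3 held 3, and without that library the hormone-sensing level was 0.0434, while without plate 2 library 1 it was 0.209. The basal level was 0.741 times the secretory level (0.576 to 0.960), a difference smaller than the spread between libraries of either class. By level the classes thus ran secretory, basal, hormone-sensing for both Igfbp5 and Igf1r, but by library the first neighbours were not separable. For Igfbp5 the highest basal value, 27.6 (25.9 to 29.4), and the lowest secretory value, 28.0 (24.7 to 31.6), had overlapping intervals, and for Igf1r the values themselves overlapped.

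The share of cells with a transcript depends on depth and is given with and without thinning. Igfbp5 was found in 58 of 66 basal cells (87.9%, exact binomial 95% interval 77.5 to 94.6), 7 of 14 hormone-sensing cells (50%, 23.0 to 77.0) and 28 of 28 secretory cells (100%, 87.7 to 100). With every cell thinned to 1500 transcripts, the expected shares were 64.0%, 15.6% and 97.0% in the same order. Igf1r was found in 52 of 66 basal (78.8%), 3 of 14 hormone-sensing (21.4%) and 22 of 28 secretory cells (78.6%), and after thinning in 29.0%, 0.839% and 36.7% in the same order. Hormone-sensing cells were the deepest of the 3 classes and had the lowest share. Their shares depended on single libraries, since leaving out 1 library at a time gave 36.4% to 85.7% for Igfbp5 and 9.09% to 42.9% for Igf1r, each highest without plate 2 library 1. Basal cells with a transcript numbered 50 for Igfbp2 (75.8%), 48 for Igfbp3 (72.7%) and 48 for Pappa (72.7%), and the thinned shares were 39.5%, 35.1% and 30.5%. Among the 58 basal cells not led by another type the unthinned shares were 86.2%, 81.0% and 82.8%, and 82.8% for Igf1r. Where no cell held a transcript, the exact binomial upper limit on the share of cells with one was 23.2% for the 14 hormone-sensing cells and 12.3% for the 28 secretory cells, and the floor of 3 cells stood at 21.4% and 10.7%. Igfbp3 was found in 1 of 28 secretory cells.

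**Figure D2:**
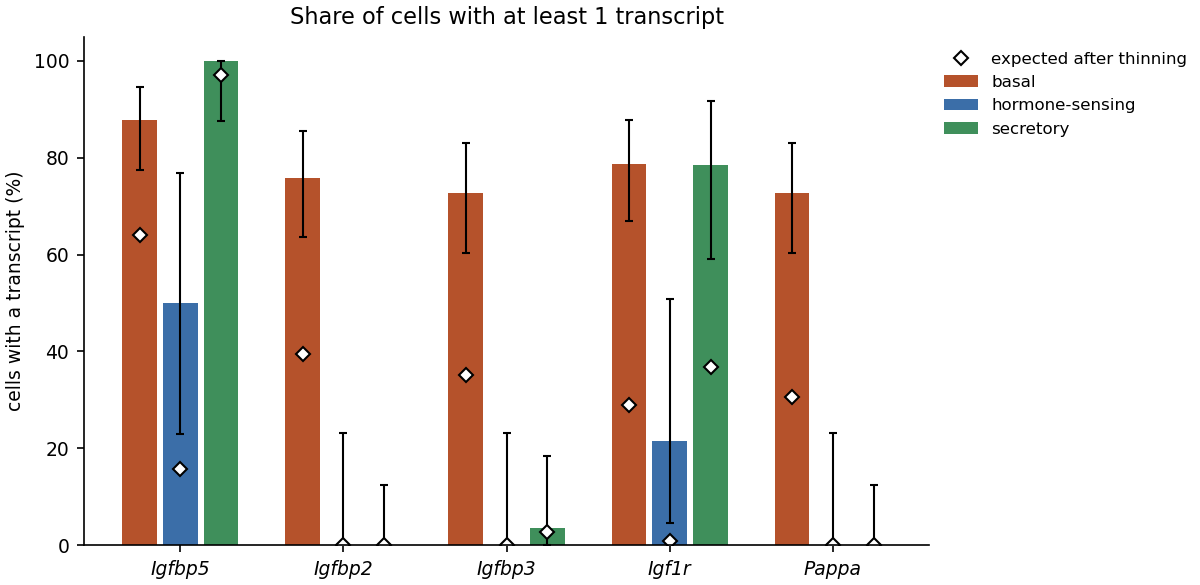
Percent of cells with at least 1 transcript of each gene, per class, with exact binomial 95% intervals as error bars; diamonds give the share expected when every cell is thinned to 1500 transcripts. Secretory cells stand at 100% for Igfbp5 and at 97.0% after thinning, and the luminal bars are at or near 0 for Igfbp2, Igfbp3 and Pappa.

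Within basal cells, Igfbp2, Igfbp3 and Pappa were often found together. Of the 66 basal cells, 36 held all 3, 16 held 2 of them, 6 held 1 and 8 held none. The groups differed in depth, with medians of 22312, 6601, 4535 and 2987 transcripts in that order. Of the 8 cells with none, 7 were led by markers of another cell type. Among the 58 basal cells not so led, only 1 held none of these genes. Igfbp5 was found in 55 of those 58 cells (94.8%), against 3 of the 8 led cells, which held 5 Igfbp5 transcripts in all.

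Igfbp5 varied more widely between cells than these counts show. Single basal cells ranged from 0 to 133 per 10000 with a median of 14.3, and single secretory cells ranged from 4.08 to 226 with a median of 67.0. The lowest secretory value, 4.08 from 2 transcripts, was that of the 1 secretory cell led by another type. The 3 highest cells held 18.8% of all Igfbp5 transcripts in basal, 74.3% in hormone-sensing and 35.4% in secretory cells. In the secretory cell with the highest count, 231 transcripts, 152 of the 256 possible molecule tags had been seen, so the highest values rest on the correction for shared tags. Of the 27 secretory cells not led by another type, 22 held both Igfbp5 and Igf1r.

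Among hormone-sensing cells, the counts of Igfbp5 and of Trf, the secretory rule gene, both went with library. The 7 cells with Igfbp5 held 11, 8, 7, 4, 3, 1 and 1 transcripts, and 6 of them also held Trf. The other 7 cells held neither Igfbp5 nor Trf, and 6 of them came from plate 2 library 1, where all 7 hormone-sensing cells had 0 Trf. In the other libraries 6 of 7 cells held Igfbp5. Median depth was 36794 transcripts in the cells with Igfbp5 and 15538 in those without. The 3 hormone-sensing cells with Igf1r had the 3 highest Igfbp5 counts, at depths of 57903, 44963 and 45559 transcripts. Per 10000 transcripts the highest Igfbp5 level of the class, 6.73, lay in a cell without Igf1r. The level of Igfbp5 in wells without a kept cell is given at the end, and its part in these counts was not tested.

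**Figure D3:**
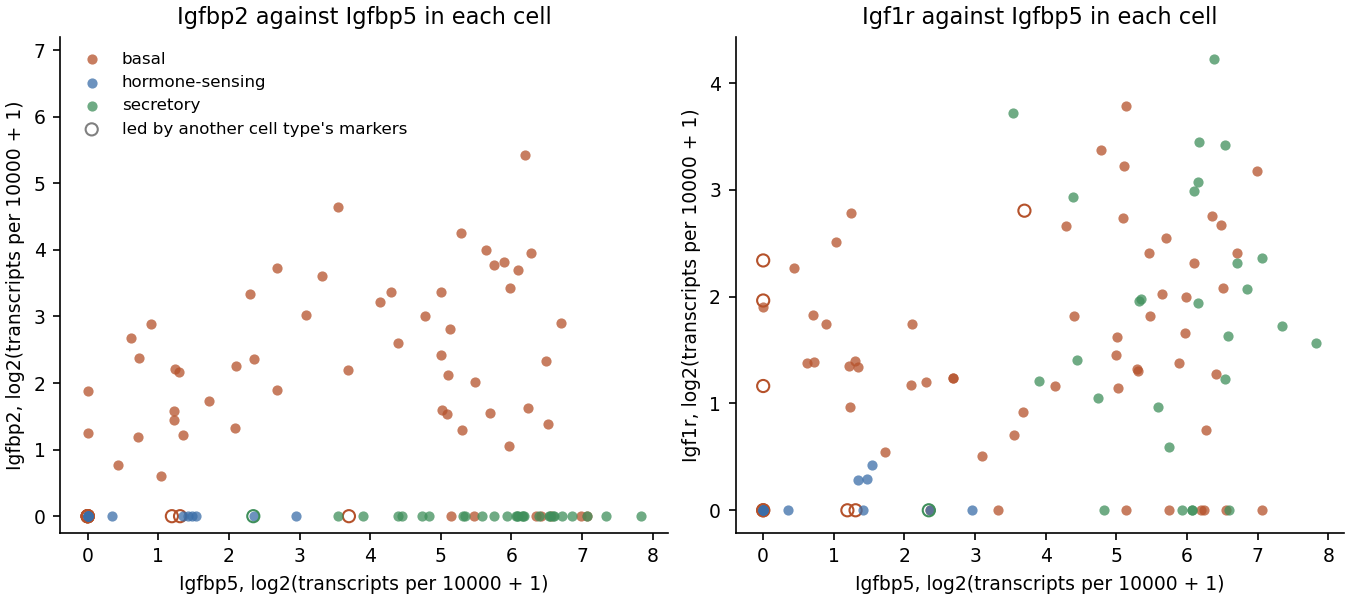
Each point is 1 cell, with Igfbp5 on the horizontal axis and Igfbp2 (left) or Igf1r (right) on the vertical axis, as log2 of transcripts per 10000 plus 1; open circles are cells led by the markers of another cell type. Secretory cells lie at 0 for Igfbp2 and spread over Igf1r, and the 3 hormone-sensing cells above 0 for Igf1r sit at low values of both genes.

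Plate was the contrast in which the genes could be tested, since their choice did not use it. The 4 basal and 4 luminal library sums were fitted over all genes with edgeR's quasi-likelihood test, with class as covariate. Of 4147 genes tested, 0 passed an adjusted p of 0.05 (0%), 228 had an unadjusted p under it (5.5%), and DESeq2 called 3. None of the 5 genes passed in either tool, and Igfbp2 alone had an unadjusted p under 0.05 (0.00445 in edgeR's test over all genes). In luminal cells Igfbp2 and Pappa had 0 transcripts and Igfbp3 had 1. The plate changes of these genes therefore rest on the basal sums of libraries 2 and 4 alone, and luminal sums at 0 say nothing about their spread. Igfbp2 was at 5.01 and 6.45 per 10000 in the basal cells of plate 2, against 1.14 and 2.12 in those of plate 1. All plate 2 values were above all plate 1 values, and the fitted log2 change was 1.75 ± 0.46 (SE), with an adjusted p of 0.675 in edgeR. With no filter on low counts it was 2.03 with an adjusted p of 0.0315. Igfbp3 was also higher in both plate 2 basal libraries, with 3.77 and 4.06, against 1.86 and 2.51 on plate 1, and a log2 change of 0.87 ± 0.41 (SE, edgeR adjusted p 0.912). Without cells led by another type, found only in the plate 1 basal libraries, the plate 1 values were 3.26 and 2.64 for Igfbp3. For Igfbp2 they were 2.01 and 2.23.

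For Pappa the plate change was 0.51 ± 0.66 on the log2 scale (SE, edgeR adjusted p 0.977), and it turned to -0.24 once cells led by another type were set aside. The Igfbp5 change was -0.23 ± 0.57 and the Igf1r change -0.21 ± 0.57 (SE, edgeR adjusted p 0.994 for each). The luminal sums pool both luminal classes in unlike shares. Hormone-sensing and secretory cells numbered 7 and 3 in plate 2 library 1, 3 and 9 in library 3 of each plate, and 1 and 7 in plate 1 library 1. Luminal Igfbp5 was at 4.61 in plate 2 library 1 and at 26.4 to 53.5 in the others. The part of this mix in the plate changes was not tested. In basal cells Igfbp5 was at 16.4 and 27.6 on plate 2 against 10.4 and 14.4 on plate 1, and without cells led by another type it was at 16.4 and 27.6 against 17.8 and 14.9, so that the plates overlapped. In secretory cells the plates overlapped too, with 58.2 and 48.5 on plate 2 against 28.0 and 127 on plate 1. The plate effect in basal minus that in luminal cells, from the same mixed luminal sums, was 2.09 ± 0.96 for Igfbp5 (SE, edgeR adjusted p 0.9999).

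The rest of the pathway was read from a list of 64 further genes, chosen with earlier results of these data known, of which 58 were in the table. The fit of basal against luminal cells tested 26 of them with edgeR, and 5 were higher and 2 lower (26.9%), beside 14.6% of all 3412 genes tested (8% higher, 6.57% lower). Their median log2 change was 0.26, against 0.00 over all genes. In hormone-sensing against secretory cells 3 of 15 were higher and 2 lower (33.3%), beside 13.1% of all 1801 genes tested (5.61% higher, 7.5% lower). Their median log2 change was 0.11, against 0.10 over all genes. This fit held 3 sums of each luminal class, so its p-values rest mainly on a spread that edgeR shares across genes. The plate fit tested 29 of the list genes, and 0 passed in edgeR, 3 had an unadjusted p under 0.05, and DESeq2 called 1. The 5 genes are not among these counts. For orientation only, the same fits put Igfbp5 at -6.45 ± 0.39 and Igf1r at -4.62 ± 0.79 (log2 ± SE) in hormone-sensing against secretory cells.

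The ligands were all but absent from the cells. Igf1 had 1 transcript in the 108 cells with a class, and Igf2 had 0. Of the other receptors, Igf2r, which clears IGF2, had 0.633 per 10000 in basal, 1.04 in hormone-sensing and 0.775 in secretory cells, and its basal over luminal log2 change was -0.52 ± 0.39 (SE), not past the threshold. Insr, the insulin receptor, was at 0.356 in basal, 0.533 in hormone-sensing and 0.168 in secretory cells, too low to be tested.

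Of the other binding proteins, Igfbp4 was a basal gene as well. It held 5.09 and 3.13 per 10000 in the basal cells of plate 2 libraries 2 and 4, and 2.43 and 3.96 in those of plate 1 libraries 2 and 4. Hormone-sensing cells held 0, and secretory cells held 4 transcripts, or 0.135 per 10000. The basal values did not overlap with the luminal ones, which reached 0.297. The log2 change over luminal cells was 5.72 ± 0.64 (SE, edgeR adjusted p 4.71e-05), and 52 of 66 basal cells held a transcript. Igfbp7, a relative with low affinity for IGFs, had 8.85 in plate 1 library 2 and 0.540 to 1.16 in the other basal libraries. Its log2 change of 3.04 ± 1.05 (SE) did not pass (edgeR adjusted p 0.0738), and its highest library was the one with the most endothelial transcripts. Igfbp6 had 0 transcripts.

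Of the 12 proteases and protease inhibitors in the table, 6 were tested with edgeR in basal against luminal cells, and 3 were higher and 1 lower (66.7%, beside 14.6% of all genes). Timp2, a metalloprotease inhibitor, with a log2 change of 0.95 ± 0.32 (SE, edgeR adjusted p 0.0622), and Mmp14, with -0.07, did not pass. In hormone-sensing against secretory cells 2 of 3 were higher (66.7%, beside 13.1% of all genes), and Timp2 did not pass. Stc2 encodes stanniocalcin 2, which is known to bind and inhibit pappalysin. It stood at 9.87, 11.2 and 9.78 per 10000 in the 3 hormone-sensing library sums, against 0 to 0.398 in the secretory ones. Every one of the 14 hormone-sensing cells held a transcript, and basal cells held 1 transcript in all. The log2 change was 4.92 ± 0.72 in hormone-sensing against secretory cells (SE, edgeR adjusted p 7.81e-10), and -8.43 ± 0.98 in basal against luminal cells (SE, edgeR adjusted p 5.63e-05). Pappa and its inhibitor were thus found in different classes, with 343 and 1 transcripts in basal cells, 0 and 341 in hormone-sensing cells, and 0 and 8 in secretory cells. Without plate 2 library 1, whose secretory sum held 3 cells, the adjusted p for Stc2 between the luminal classes was 0.0561 and 0 of 15 list genes passed.

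Mmp2, a gelatinase, had 0.999 to 2.30 per 10000 over the basal libraries and 0 in luminal cells, at least 37.3-fold higher in basal cells (edgeR adjusted p 1.28e-04). Adamts1, a secreted metalloprotease, had 1.43 to 4.54 over the basal libraries and 2 transcripts in luminal cells (log2 change 6.22 ± 0.66, SE, edgeR adjusted p 3.48e-05). Timp3, a matrix-bound inhibitor of metalloproteases, was higher in basal cells by 4.82 ± 0.68 (log2 ± SE, edgeR adjusted p 2.38e-04), and its highest value, 12.1, again lay in plate 1 library 2, against 2.99 to 3.89 in the other basal libraries. Htra1, a serine protease, had 86 transcripts in basal cells and 0 in luminal cells but did not enter the fit. Mmp14, a membrane-bound protease, was higher in hormone-sensing than in secretory cells by 2.20 ± 0.69 (log2 ± SE, edgeR adjusted p 0.0144). The Mmp14 call was lost in 7 of 12 alternatives, with adjusted p-values of up to 0.348.

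Downstream of the receptor, edgeR called 1 of 1 adaptors, 1 of 7 genes of the PI3K, AKT and mTOR group and 1 of 4 FOXO genes and targets in hormone-sensing against secretory cells, beside 13.1% of all genes. In basal against luminal cells it called 1 of 5, 0 of 7 and 1 of 5 in the same order, beside 14.6% of all genes. Grb14, an adaptor that restrains the insulin receptor, was at 1.44 to 3.07 per 10000 in hormone-sensing and 0 to 0.210 in secretory cells (log2 change 4.96 ± 1.08, SE, edgeR adjusted p 8.56e-05). That call was lost without any 1 of the 3 libraries and with cells of at least 3000 transcripts (adjusted p 0.0552 to 0.0958). It was lower in basal than in luminal cells by a log2 change of -2.35 ± 0.64 (SE, edgeR adjusted p 0.0245), a call lost when plate 2 library 2 or 4 or plate 1 library 3 or 4 was left out (adjusted p up to 0.121). Pooled, the basal level of Grb14 was 0.0961 times the hormone-sensing level (0.0573 to 0.155). Against secretory cells it was not lower, at 2.03 times their level (0.613 to 10.6), from 23 and 3 transcripts. The 7 tested genes of the PI3K, AKT and mTOR group did not pass between basal and luminal cells in edgeR, among them Akt1, a kinase of that route, with a log2 change of 0.26. Pik3r1, a regulatory subunit of PI3K, was lower in hormone-sensing than in secretory cells (log2 change -1.68 ± 0.60, SE, edgeR adjusted p 0.0387), a call lost in 7 of 12 alternatives, with adjusted p-values of up to 0.844. Irs1, an adaptor of both receptors, was at 0.321 in basal, 0.237 in hormone-sensing and 1.35 in secretory cells and was not tested.

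Foxo1, a factor that AKT keeps out of the nucleus, was at 0.548, 0.510 and 0.373 per 10000 in the hormone-sensing sums, against 2.53 to 6.46 in the secretory ones. The values did not overlap, and the log2 change was -3.24 ± 0.64 (SE, edgeR adjusted p 9.01e-06). Without plate 2 library 1 the adjusted p was 0.0570, and with cells of at least 3000 transcripts it was 0.0520. Ccnd2, a cyclin of the G1 phase, had 6.42 to 12.6 per 10000 over the basal libraries and 6 transcripts in all luminal cells. Its log2 change was 6.47 ± 0.58 in basal over luminal cells (SE, edgeR adjusted p 1.23e-05). Ccnd1, its relative, had a log2 change of -0.18 in the same fit and did not pass.

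**Figure D4:**
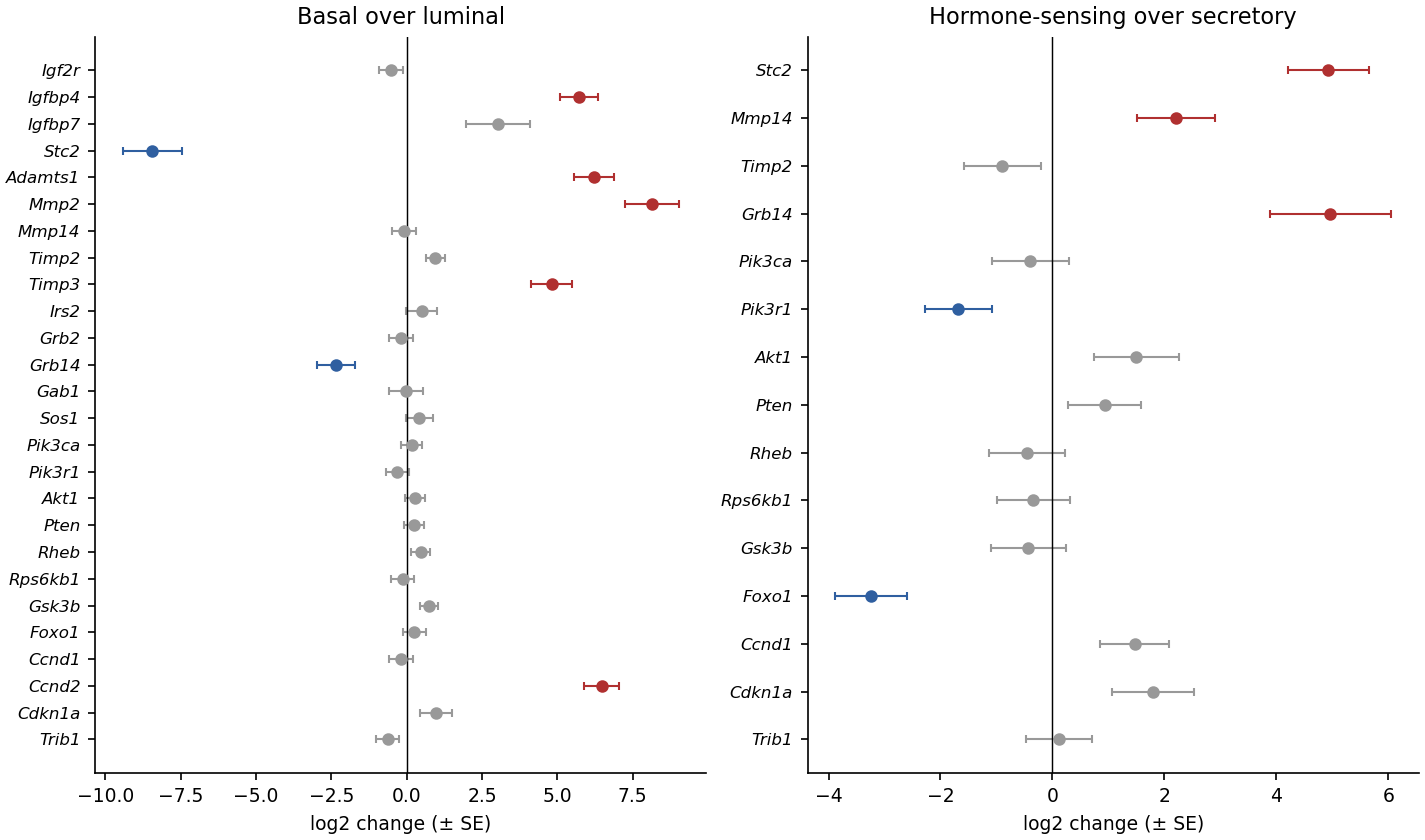
Log2 change ± SE of each tested pathway gene in basal over luminal cells (left) and hormone-sensing over secretory cells (right), from edgeR; red marks genes higher and blue genes lower at an adjusted p under 0.05, grey the rest. Most signalling genes lie near 0, and Igfbp4, Adamts1, Mmp2, Timp3 and Ccnd2 lie to the right and Stc2 to the left in the first panel.

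The genes with the most similar pattern were looked up by Pearson's r of log2(CPM + 10) over the 11 library sums of the 3 classes with at least 3 cells, among 3583 genes with at least 100 transcripts. The sums share libraries and depth, and these values are descriptions. For Igfbp5 they were Gas6 (0.962), Sox10 (0.947) and Nfib (0.946). For Igf1r they were Pdgfc (0.954), Nfib (0.952) and Igfbp5 itself (0.944). Igfbp2 was nearest to Fscn1 (0.998), Moxd1 (0.996) and Reln (0.996), and Igfbp3 to Cdh3 (0.997), Rtn1 (0.995) and Spon2 (0.993). Pappa was nearest to Rcn3 (0.998), Actg2 (0.997) and Apobec1 (0.997). Igfbp2, Igfbp3 and Pappa each had neighbours that, like them, were high in basal sums.

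The wells under 500 transcripts give the level of RNA outside kept cells. Pooled over 579 such wells, Igfbp5 was at 14.4 per 10000, Igfbp2 at 0.961, Igfbp3 at 1.68, Igf1r at 1.08 and Pappa at 1.20. Igfbp5 transcripts were seen in 89 of these wells, at 5.52 to 28.7 per 10000 by library, a range that overlapped with that of the basal libraries. The hormone-sensing levels of 1.04 for Igfbp5 and 0.118 for Igf1r were under those of the low wells. So was the secretory level of Igfbp3, 0.0337 from 1 transcript. These levels are shares of the transcripts summed, not amounts per well. The source of these few transcripts was not tested. The secretory level of Igfbp5, 62.2, and the pooled basal levels of all 5 genes were above those of the low wells pooled over all libraries. In libraries 2 and 4, the mainly basal ones, the low wells held Pappa at 2.09, Igfbp2 at 1.16 and Igfbp3 at 2.78, from 9, 5 and 12 transcripts. In libraries 1 and 3 they held Pappa at 0.249, Igfbp2 at 0.748 and Igfbp3 at 0.499. Those values rest on 1, 3 and 2 transcripts, at or under the floor of 3. For Igfbp2 the intervals overlapped (0.376 to 2.70 in libraries 2 and 4, 0.154 to 2.19 in libraries 1 and 3). Within plate 2 library 4 the low wells stood above the basal cells for Igfbp3 (5.93 against 4.06) and Pappa (2.97 against 2.22). Those low-well values rest on 8 and 4 transcripts. In plate 2 library 2 and plate 1 libraries 2 and 4, basal cells stood above the low wells for all 5 genes.

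**Figure D5:**
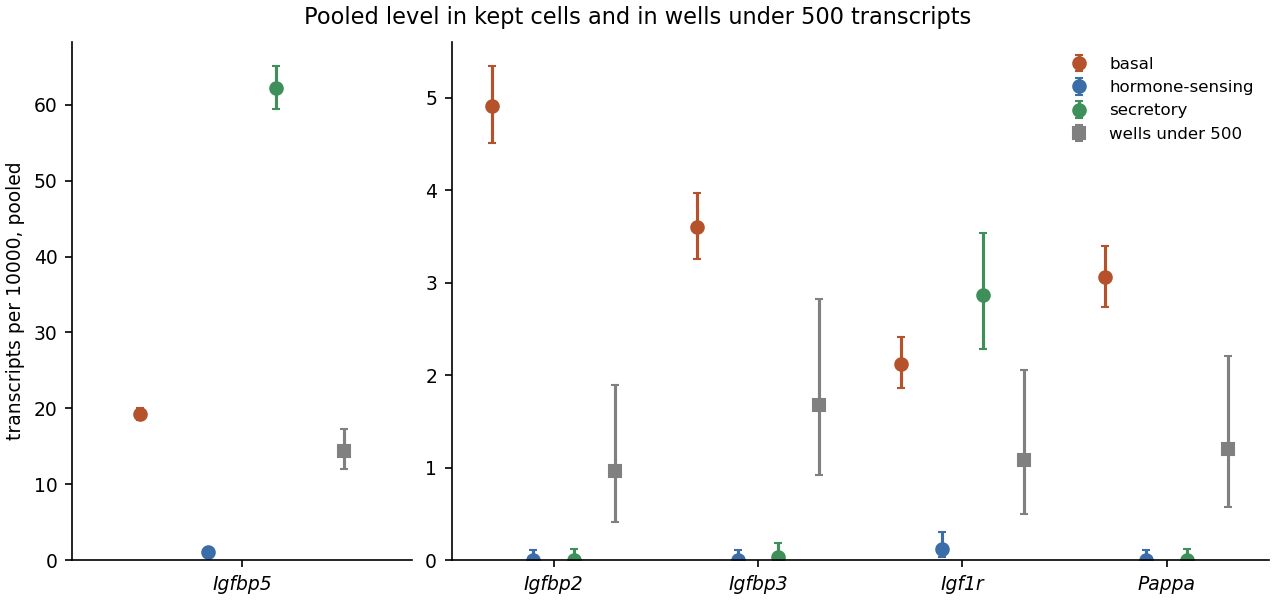
Pooled level of each gene in the 3 classes and, in grey, in the 579 wells under 500 transcripts, in transcripts per 10000 with exact 95% Poisson intervals; Igfbp5 has its own axis. Hormone-sensing cells lie under the low wells for every gene, and pooled basal cells lie above them for every gene.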

How the data were processed

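Transcripts were measured in 768 wells of 8 libraries by SORT-seq, and the deposited table gives expected counts, estimated molecules per gene and well. The values follow a correction for shared 4-base tags in a pool of 256, read from the values (533073 of 533078 values above 0 within a tolerance of 1e-06). The submitters' processing notes list BWA 0.6.2-r126 and mm10 and no settings. The sources used here give no other upstream step. Library totals ran from 101158 to 598625 transcripts without the 81 spike-in lines, and median depth of kept cells from 4872 to 21255. The genes, the pathway list and the tests were chosen with earlier results of these data known.

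Counts were rounded to whole numbers. Doublets were not called or removed. Sums per library and class (at least 5 cells for basal and luminal, 3 for the luminal classes, with the library as block there) were tested with edgeR 4.0.16 in R 4.3.3 (quasi-likelihood test after TMM and filterByExpr, with p-values adjusted by Benjamini-Hochberg over all tested genes and a threshold of 0.05). DESeq2 1.42.0 was an alternative. The 8 genes of the class rule were kept out of the tests. Standard errors were derived from each gene's log2 change and F statistic and are approximate. The fits hold 4 basal and 4 luminal sums, and 3 sums of each luminal class. With the library as block, the fit of the luminal classes could measure little spread between libraries for any 1 gene. Its p-values and its count of genes called rest mainly on the spread that edgeR shares across genes. Intervals are exact Poisson or Clopper-Pearson at 95%, with a floor of 3 transcripts over a class for a count of 0. Shares after thinning are hypergeometric expectations at 1500 transcripts, a depth every kept cell reached. The steps were tested on simulated data.

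Named pathway genes were those that passed in a contrast, and up to 2 others per role, these last picked after their values were seen. Age and strain are the labels' own, and other details of the animals are not given there.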

Additional observations from a re-analysis of the deposited data

Results flagged for a closer look

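Igfbp3 in secretory cells of plate 2 library 3 stood at 0.0877 per 10000, from 1 transcript, while the other 3 secretory libraries were at 0. With 3 libraries at 0 any single transcript sets a library apart, and 1 transcript is under the floor of 3, so nothing is read from it.

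Wells left out of the classes also held the 5 genes, above what a count of 0 allows. In the 579 wells under 500 transcripts the levels per 10000 were 14.4 for Igfbp5, 0.961 for Igfbp2, 1.68 for Igfbp3, 1.08 for Igf1r and 1.20 for Pappa, from 8 to 120 transcripts each. Of the wells of 500 to 1499 transcripts, 30 were basal by the rule and held 11.3 for Igfbp5, 1.62 for Igfbp2, 2.42 for Igfbp3, 2.42 for Igf1r and 4.04 for Pappa. In the same depth range 9 hormone-sensing wells held Igfbp5 at 6.36 (2.07 to 14.9, from 5 transcripts) and 15 secretory wells at 11.5 (6.59 to 18.7, from 16 transcripts). Pappa and Igfbp3 were at 0 in those hormone-sensing and secretory wells, Igfbp2 was at 0 in the hormone-sensing and at 0.720 in the secretory wells, from 1 transcript, and Igf1r was at 1.27 in the hormone-sensing wells, from 1 transcript, and at 0 in the secretory wells. By these few transcripts the gap between the luminal classes in Igfbp5 was smaller than in kept cells, and the intervals of the classes overlapped. This difference was not tested.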

How the results depend on the processing

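The count of genes past the threshold moved most. Basal against luminal gave 497, and 1502 with no filter on low counts, 825 with cells led by another type set aside, 777 with unclear cells set aside, and 428 to 828 without 1 library (828 without plate 1 library 2, 753 without plate 1 library 1). Hormone-sensing against secretory gave 236, and 33 with cells of at least 3000 transcripts and 9 to 136 without 1 library (9 without plate 2 library 1, 117 without plate 1 library 3, 136 without plate 2 library 3), and 226 without the library as block. Plate gave 0, and 3 with DESeq2, 129 with no filter, 1 with the library number as replicate block, and 0 to 5 without 1 library (5 without plate 2 library 3, 2 without plate 2 library 1). Fewer cells or sums entered some of these fits, and otherwise the cause was not tested.

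Of the 5 genes in the plate fit, Igfbp2 ran from 1.48 to 2.31 without 1 library and passed with no filter (log2 2.03, edgeR adjusted p 0.0315), with adjusted p-values of 0.0315 to 0.999 over all 17 alternatives. Pappa turned to -0.24 both with led and with unclear cells set aside, and ran from -0.13 to 2.37 without 1 library, turning without plate 1 library 2. Igfbp5 ran from -0.56 to 0.35 and Igf1r from -0.60 to 0.25, both turning without plate 1 library 3 or plate 2 library 1. Igfbp3 ran from 0.77 to 1.18. Same-numbered libraries of both plates held the same class and their deviations from the plate means correlated at 0.318 to 0.640, but at -0.478 to -0.0709 once class was taken out, so the numbers were not used as pairs. In the plate fit the replicate block changed no call for the 5 genes. In hormone-sensing against secretory cells, 3 list genes were higher and 2 lower with the library as block. Without that block the counts were 2 and 2. Levels stayed within 1 SD in 160 of 160 alternative values and shares in 125 of 145 within their interval, with thinning among the rest. Levels and shares at 0 in every setting could not move, and the SD between libraries is a wide measure. Igfbp5 in secretory cells ran from 40.2 to 78.3 per 10000 within its SD of 42.7. Depth limits the hormone-sensing value of Igf1r, which rests on 14 cells with 4 transcripts.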
